A study of Mus musculus with 14 samples.

Results

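In this study of mouse embryonic fibroblasts 10 genes were examined that make serine, glycine, proline, asparagine and cysteine or pass on their one-carbon units. They were chosen by name: Phgdh, Psat1, Psph, Shmt2 and Mthfd2 for serine, glycine and one-carbon units, Aldh18a1 and Pycr1 for proline, Asns for asparagine, and Cth and Cbs for cysteine. Of them 9 are among the 14248 genes with a value, and Cbs was not listed in any of the 14 libraries. Cells came from C57BL/6J mice, and 7 libraries per assay were sequenced. Ribo-seq read the mRNA pieces of 25 to 35 nt that ribosomes shield from nuclease (footprints), and RNA-seq read pieces of total RNA of 40 to 60 nt after ribosomal RNA was removed. The groups were a control hairpin (Scram, 2 replicates per assay), a hairpin against METTL3, which writes N6-methyladenosine on mRNA (shMETTL3, 2 replicates), a hairpin against ABCF1, a ribosome-associated ATPase of the ABC family (shABCF1, 2 replicates), and cells given the mTOR inhibitor Torin1 at 250 nM for 2 h (Torin, 1 library per assay). Cells of every group were washed and lysed with cycloheximide at 100 µg/ml. The labels name a DMSO control, but which libraries received it, which cells (Scram or wild-type) received Torin1, and how many hairpins or clones stood behind a knockdown are all unstated in the labels. The study's title concerns translation of mRNA that does not need eIF4F, the complex that binds the cap, and each group is compared here with Scram for these 10 genes.

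Serine is made from the glycolytic intermediate 3-phosphoglycerate in 3 steps, by phosphoglycerate dehydrogenase (Phgdh), phosphoserine aminotransferase (Psat1) and phosphoserine phosphatase (Psph). In mitochondria Shmt2 splits serine into glycine and a one-carbon unit on folate, which Mthfd2 oxidises further, and such units feed purine and thymidylate synthesis. Aldh18a1 carries out the first steps from glutamate towards proline and Pycr1 the last, Asns makes asparagine from aspartate with nitrogen from glutamine, and Cbs and Cth carry sulfur from homocysteine to cysteine. Many of these genes are known targets of the stress-responsive transcription factor ATF4, which binds the C/EBP-ATF response element, and mTOR signalling is known to promote ATF4 production.

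On GRCm38, by the transcripts kept from GENCODE M21, all 9 genes lie on the minus strand. The serine and one-carbon genes are Phgdh (ENSMUST00000065793) at chr3:98313170-98339990, Psat1 (ENSMUST00000025542) at chr19:15904678-15925059, Psph (ENSMUST00000031399) at chr5:129765558-129787449, Shmt2 (ENSMUST00000026470) at chr10:127517139-127522444 and Mthfd2 (ENSMUST00000005810) at chr6:83305691-83317606. The others are Aldh18a1 (ENSMUST00000025979) at chr19:40550257-40588463, Pycr1 (ENSMUST00000026133) at chr11:120639416-120643748, Asns (ENSMUST00000115542) at chr6:7675169-7692871 and Cth (ENSMUST00000118539) at chr3:157894248-157925077.

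The core of that element, TGATGNAA on either strand, was looked for in RefSeq promoter windows of 300 bases (250 before and 50 after the annotated start, GRCm38.p6). Windows were found for 9 of the 10 genes, all but Cth. The core was present in 2 of these 9, those of Asns and Pycr1, and in 4.51% of all 27025 genes with a window. Both stretches are printed because they show the 2 matches within their surroundings, 5′ to 3′ on the minus strand with the 8 matching bases in capitals. The first is chr6:7693210-7693309, the 100 bases just before the RefSeq start of Asns, where the match begins 23 bases before the start. The second is chr11:120643798-120643897, from 149 to 50 bases before the start of Pycr1, where the match begins 103 bases before it.
Asns: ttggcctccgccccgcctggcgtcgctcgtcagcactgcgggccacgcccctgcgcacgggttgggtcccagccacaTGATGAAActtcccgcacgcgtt
Pycr1: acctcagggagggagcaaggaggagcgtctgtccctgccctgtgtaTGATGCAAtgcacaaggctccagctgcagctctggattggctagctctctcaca
A match is a description of letters in this window. Neither binding nor promoter activity was measured.

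Libraries of the same replicate number resembled each other across groups, and 2 features of the files bear on the values. Files of replicate 1 list transcripts from about 1 read up, whereas those of replicate 2 and Torin list them from about 5 reads up, so a gene not listed there may have had a few reads. The replicate sets also differed in level for single genes, and each knockdown is therefore set against Scram of the same replicate, and Torin against Scram replicate 2. The deposited values imply between 1764404 and 5155237 reads per Ribo-seq library, and for RNA-seq between 1197860 and 3802703. All 12 fibroblast markers checked, Col1a1, Vim and Fn1 among them, were listed in both assays, with a summed RNA level of 2396 to 4324 scaled RPKM, while the summed level of 3 hepatocyte markers was at most 0.42 and of 4 endothelial markers at most 1.40. The summed level of 5 haematopoietic markers reached 6.49 and that of 5 epithelial markers 69.8, with Epcam not listed in RNA-seq. By footprints the fibroblast sum was 5303 to 11073, and the epithelial sum 74.3 to 283 with all 5 listed. The haematopoietic footprint sum reached 27.2 and the endothelial one 2.09, and no hepatocyte marker was listed. Mettl3 had 29.0% and 77.8% of the Scram RNA level under shMETTL3 in replicates 1 and 2, and 12.3% and 38.7% of its footprint level. Abcf1 had 29.3% and 47.8% of the RNA level and 34.2% and 50.6% of the footprint level under shABCF1.

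In control cells most of the pathway was strongly expressed (the plot of RNA against footprint level in Scram). Levels are RPKM (reads per length of the feature and depth of the library) after scaling each library to a common median, over the whole transcript in RNA-seq and over the coding part in Ribo-seq, and the 2 Scram replicates are given in order. Phgdh and Psat1 led the RNA levels, with 109 and 190 for Phgdh and 153 and 104 for Psat1, and the ranges of this pair overlapped. Asns (87.7 and 57.1), Shmt2 (66.6 and 68.0), Mthfd2 (67.2 and 40.6), Aldh18a1 (48.0 and 36.3) and Psph (23.5 and 36.9) followed, each overlapping the next in that order. Pycr1 (7.02 and 2.09) and Cth (2.96 and 2.42) lay apart at the bottom. All 7 of the higher genes were at percentile 78.2 or above in RNA level in both replicates. Percentiles are among genes that passed a filter on low values, 9021 in RNA-seq.

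The order of the footprint levels was different. Psat1 had the highest mean, 617 and 610, followed by Phgdh at 221 and 617, Shmt2 at 386 and 271, Psph at 249 and 349, Mthfd2 at 335 and 185 and Asns at 266 and 168, and no neighbours among these 6 were separated beyond their replicates. Aldh18a1 (58.1 and 73.7), Pycr1 (27.7 and 24.1) and Cth (16.8 and 6.61) came below, each apart from the next. Translational efficiency (TE) is the log2 footprint level minus the log2 RNA level. It was highest in Psph, at 3.35 and 3.21, near the top of the genes passing the filter (percentiles 92.2 and 95.6). It was lowest in Aldh18a1, at 0.27 and 1.00 (percentiles 28.3 and 40.8). Psph had the lowest RNA level of the 3 serine enzymes, while its footprint level overlapped that of Phgdh. Aldh18a1 overlapped Mthfd2 in RNA level and lay below it in footprints.

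**Figure D1:**
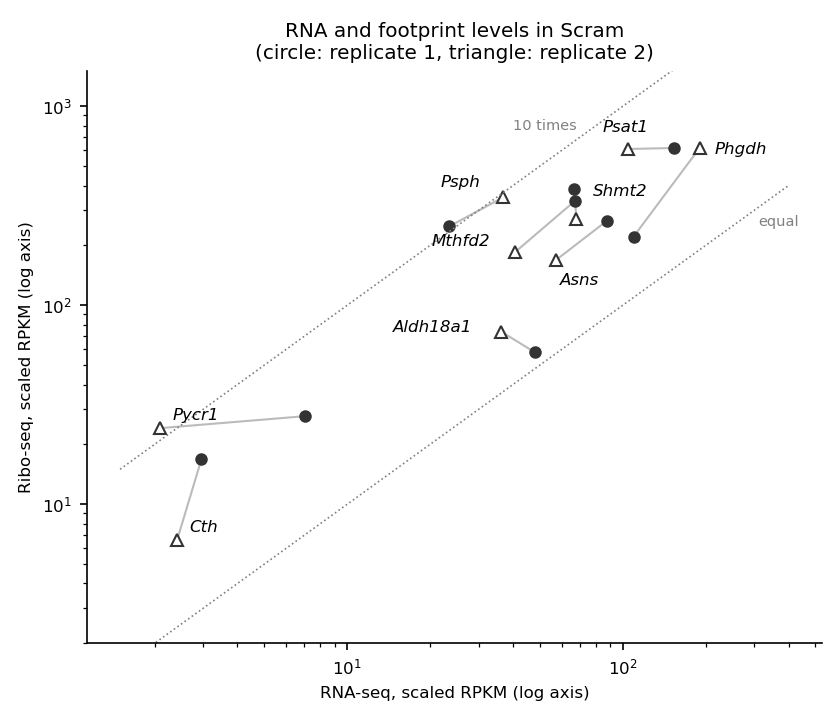
RNA-seq level (x axis, scaled RPKM, log axis) against Ribo-seq level (y axis, scaled RPKM, log axis) of 9 genes in Scram. Circles are replicate 1, triangles replicate 2, a grey line joins the replicates of a gene, and dotted lines mark equal levels and a footprint level 10 times the RNA level; Psph lies near the upper line and Aldh18a1 near the lower one.

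Phgdh needs a caution. Of the 45-base stretches of its transcript 66.4% also occur in transcripts of other annotated genes, mainly the gene models Gm7901, Gm9347, Gm8341, Gm7669, Gm13337 and Gm5847, and of the 28-base stretches 75.3%. None of these 6 was listed in any library, and the labels do not say how reads with several positions were counted, so all values of Phgdh are uncertain. Its footprint level in Scram differed 2.79-fold between the replicates and its RNA level 1.74-fold, the first being the largest footprint ratio of replicate 2 to replicate 1 among the 9 genes. The share was 4.4% or less in Psat1, 5.9% or less in Shmt2 and 0.4% or less in Pycr1, and 0 in the others. Pycr1 is given as the sum over its transcripts, because the files of replicate 1 list ENSMUST00000026133 and those of the second set ENSMUST00000170556. Both have a coding part of 930 nt, but whole lengths of 1861 and 2914 nt. RNA levels of Pycr1 are therefore over different lengths in the 2 replicate sets. The RNA-seq file of shABCF1 replicate 1 lists both, with 9 and 2 reads. It had only 6 to 33 RNA reads per library.

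Under shABCF1 the RNA levels of Asns, Psat1, Phgdh, Psph, Shmt2, Mthfd2 and Aldh18a1 were lower than in Scram of the same replicate in both replicates. Of the 10 genes, 8 passed the filter on low values, all but Pycr1, whose kept transcript was absent from the second set, and Cbs. Cth passed it through 4 of 7 RNA libraries and was not listed under either knockdown in replicate 2, so its direction there was not measured. Leaving Cth out, a choice made after the values had been seen, 7 of 7 were lower in both replicates, against 29.0% of all 9021 genes tested, and 0 were higher in both (21.8% of all genes). With the absent value of Cth at 0 the count was 8 of 8. The median log2 difference of the 7 was -0.65 (-0.80 in replicate 1 and -0.43 in replicate 2), beside -0.05 over all genes. In 4 of the 7, Asns, Psph, Shmt2 and Aldh18a1, both shABCF1 libraries lay below both Scram libraries, against 11.6% of all genes. None of the 8 tested genes passed the test (limma, p adjusted over all genes = 1.00 for each), and no gene of the 9021 did, with 79 at an unadjusted p under 0.05. Abcf1 itself, at 29.3% and 47.8% of its Scram RNA level, did not pass. Nor did Mettl3 footprints under shMETTL3 in the same kind of test, at 12.3% and 38.7%. Not passing therefore does not show that a level was unchanged. Unless stated, SEs and p values here and below are from fits without a replicate term, so they also carry the distance between replicates. With the replicate as a term the SE was 0.28 rather than 0.71 for Phgdh and 0.27 rather than 0.33 for Psph. No gene was called in that fit either (lowest limma adjusted p 0.703). The labels do not say that replicates were separate cultures, so each p value refers to the spread between libraries alone, which may be technical. In bulk samples fewer expressing cells and less RNA per cell cannot be told apart.

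**Figure D2:**
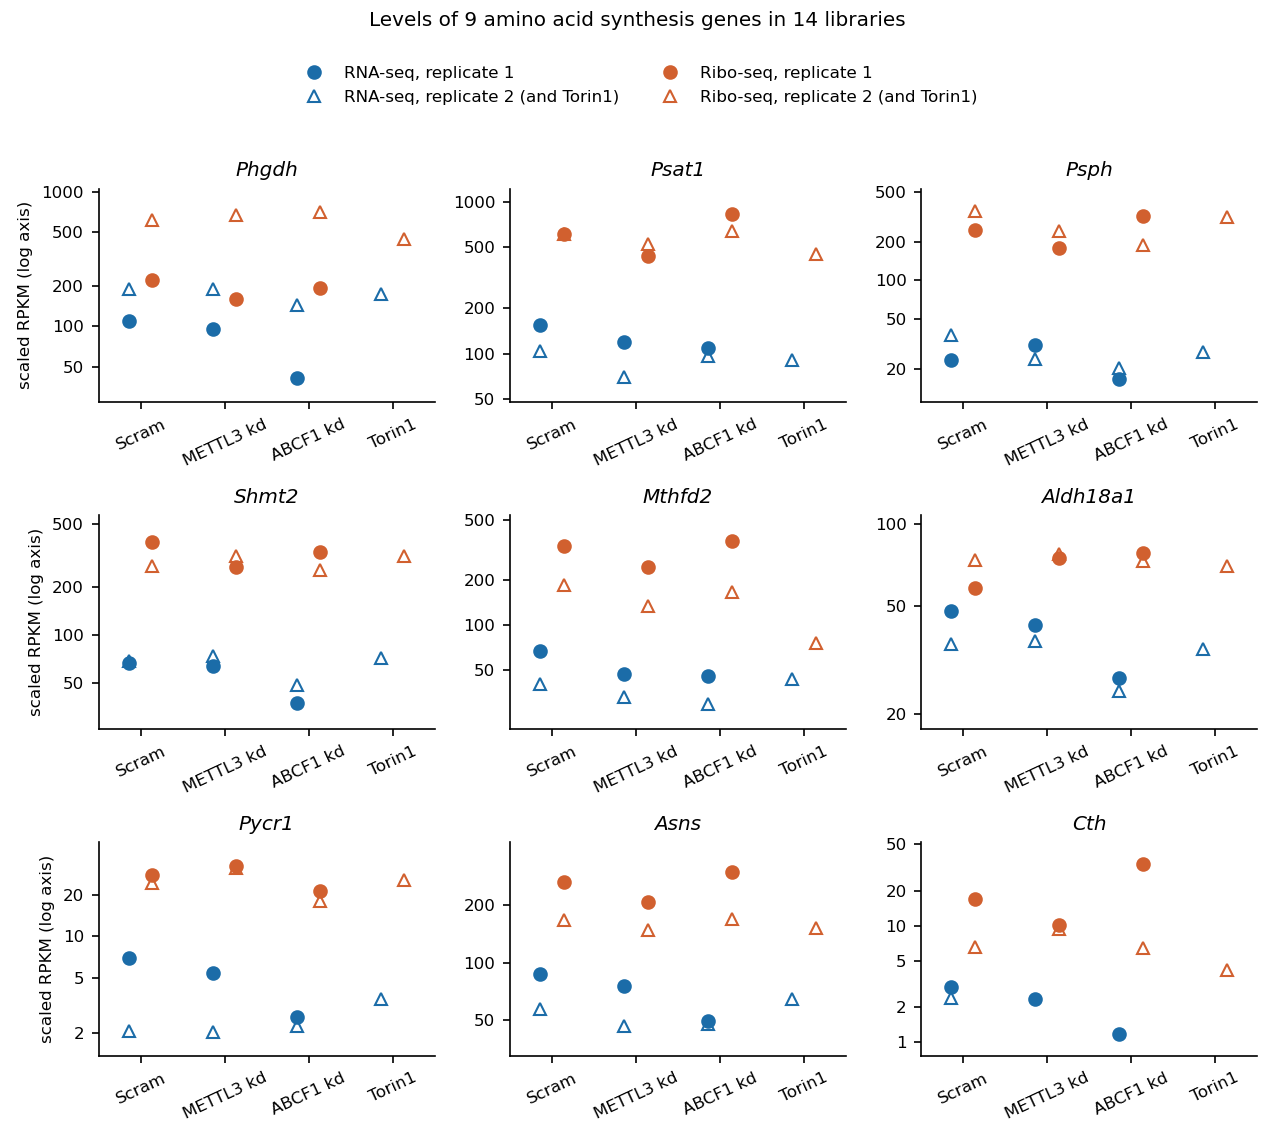
Scaled RPKM (y axis, log axis, own scale per panel) of 9 genes in RNA-seq (blue) and Ribo-seq (orange) for Scram, METTL3 knockdown, ABCF1 knockdown and Torin1 (x axis; kd is knockdown), 1 point per library. Filled circles are replicate 1, open triangles replicate 2 and Torin1; a library in which the gene was not listed has no point, as for Cth in 3 RNA-seq libraries. The RNA points of Shmt2, Aldh18a1, Psph and Asns under ABCF1 knockdown lie below both Scram points, while their Ribo-seq points do not all do so.

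Among the serine enzymes, Phgdh, the first and committed step, had RNA levels of 109 and 190 in Scram and 40.9 and 143 under shABCF1. It was at 37.4% and 75.1% of Scram of the same replicate, but the groups overlapped. Without shABCF1 replicate 1 the fitted difference of -0.90 (SE 0.71) became -0.02. Here and below, fits without 1 library had no replicate term, so libraries of different replicates were set against each other. Their values therefore also carry the distance between replicates. Within replicate 2 alone the Phgdh difference was -0.41. Psat1, the aminotransferase of the second step, went from 153 and 104 to 109 and 96.4, 71.4% and 92.4% of Scram, a log2 difference of -0.30 (SE 0.36) that became -0.02 without Scram replicate 1. These groups also overlapped. Psph, the phosphatase that ends the pathway, had 23.5 and 36.9 in Scram and 16.6 and 20.4 under shABCF1, a log2 difference of -0.65 (SE 0.33), with no overlap. Without Scram replicate 2 it was -0.21. Its counts were low, 54 and 35 reads under shABCF1.

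The mitochondrial folate enzymes were lower as well. Shmt2, which makes glycine from serine, had RNA levels of 66.6 and 68.0 in Scram and 37.3 and 48.2 under shABCF1, or 56.0% and 70.9%. The log2 difference of -0.65 (SE 0.25) came with no overlap of the groups, and counting intervals of 95% lay below 100% in both replicates. Mthfd2, the methylenetetrahydrofolate dehydrogenase downstream of it, had 67.2 and 40.6 in Scram and 45.6 and 30.0 under shABCF1, or 67.8% and 73.8%. Its shares of Scram were close in the 2 replicates although the replicates lay so far apart that the groups overlapped. The fitted difference of Mthfd2 ran from -0.78 without shABCF1 replicate 1 to -0.13 without Scram replicate 1.

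Aldh18a1, the entry to proline synthesis, had RNA levels of 48.0 and 36.3 in Scram and 27.1 and 24.3 under shABCF1, or 56.5% and 67.0%, a log2 difference of -0.68 (SE 0.26) without overlap. Asns, the asparagine synthetase, went from 87.7 and 57.1 to 49.8 and 47.6, 56.8% and 83.3%, a log2 difference of -0.53 (SE 0.35), again without overlap, which became -0.23 without Scram replicate 1. Pycr1, the last proline step, was not in the main test and differed by direction, at 37.3% and 108.2% of Scram from 11 and 6 reads under shABCF1. Cth, which releases cysteine from cystathionine, had 12 and 15 reads in Scram, 4 under shABCF1 in replicate 1, and was not listed in replicate 2, too few reads for a fold. Counting intervals excluded an equal level for 7 of 9 genes in replicate 1 and 5 of 8 in replicate 2, each time on the lower side. These intervals cover counting error only.

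Footprints of the same genes had no common direction under shABCF1. Of the 8 tested genes Shmt2 was lower in Ribo-seq in both replicates (1 of 8, against 23.0% of 9534 genes) and Asns and Psat1 were higher in both (2 of 8, against 25.3%). The median log2 difference was 0.04, beside 0.00 over all genes, and it was 0.28 in replicate 1 and -0.02 in replicate 2. Asns had 266 and 168 in Scram and 301 and 169 under shABCF1, which leaves replicate 2 almost equal. Psat1 had 617 and 610 in Scram and 830 and 641 under shABCF1, with no overlap (1 of 8 genes, against 10.8%), a log2 difference of 0.25 (SE 0.29) that became 0.06 without shABCF1 replicate 1. Shmt2 had 386 and 271 in Scram and 332 and 255 under shABCF1. The direction of the fitted difference turned for Shmt2 without Scram replicate 1 (0.10) and for Asns without shABCF1 replicate 1 (-0.33) or Scram replicate 2 (-0.06).

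The remaining genes kept no direction over the replicates, except Pycr1. Psph footprints were at 130.0% of Scram in replicate 1 and 54.9% in replicate 2. Phgdh was at 87.2% and 113.9%, Mthfd2 at 108.6% and 89.6%, and Aldh18a1 at 134.6% and 99.5%. Pycr1, with summed transcripts, had 27.7 and 24.1 in Scram and 21.4 and 18.0 under shABCF1, or 77.1% and 74.7%. Its footprint groups did not overlap, and 8.1% of all genes and 0 of the 8 tested genes were lower in this way. Both counting intervals of Pycr1 included an equal level. Cth had 16.8 and 6.61 in Scram and 33.9 and 6.45 under shABCF1, or 201.8% and 97.7%. No gene of the 9534 passed in Ribo-seq (limma), with 106 at an unadjusted p under 0.05.

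TE under shABCF1 lay above Scram for most of these genes. Leaving out Cth, it was above Scram of the same replicate in both replicates for 6 of 7 genes, against 29.5% of 9428 genes. The exception was Psph. In 5 of the 7, all but Psph and Shmt2, TE was higher without overlap of the groups, against 12.9% of all genes. None was lower in both (21.3%). With the absent RNA value of Cth at 0 the counts were 7 of 8 and 6 of 8. The median TE difference was 0.55 over the 7 genes (0.91 and 0.27 in the replicates), beside 0.06 over all genes. Over the 8 genes it was 0.58, and 0.33 without Ribo-seq shABCF1 replicate 1. Among the 7 genes the largest TE difference was that of Phgdh, 1.20 and 0.60, then Aldh18a1, 1.22 and 0.55, and Asns, 0.98 and 0.26. Psat1 had 0.91 and 0.18, Mthfd2 0.67 and 0.27, Shmt2 0.60 and 0.40, and Psph 0.85 and -0.04. Relative to its SE the difference of Aldh18a1 was the largest, 0.89 (SE 0.34). TE subtracts the same RNA libraries, so the lower RNA and the higher TE are not separate findings. No gene passed the TE test (limma, adjusted p = 1.00 for each of the 8; 39 genes of 9428 at an unadjusted p under 0.05). The Phgdh difference became -0.21 without Ribo-seq shABCF1 replicate 2, and that of Mthfd2 -0.10 without Ribo-seq shABCF1 replicate 1.

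**Figure D3:**
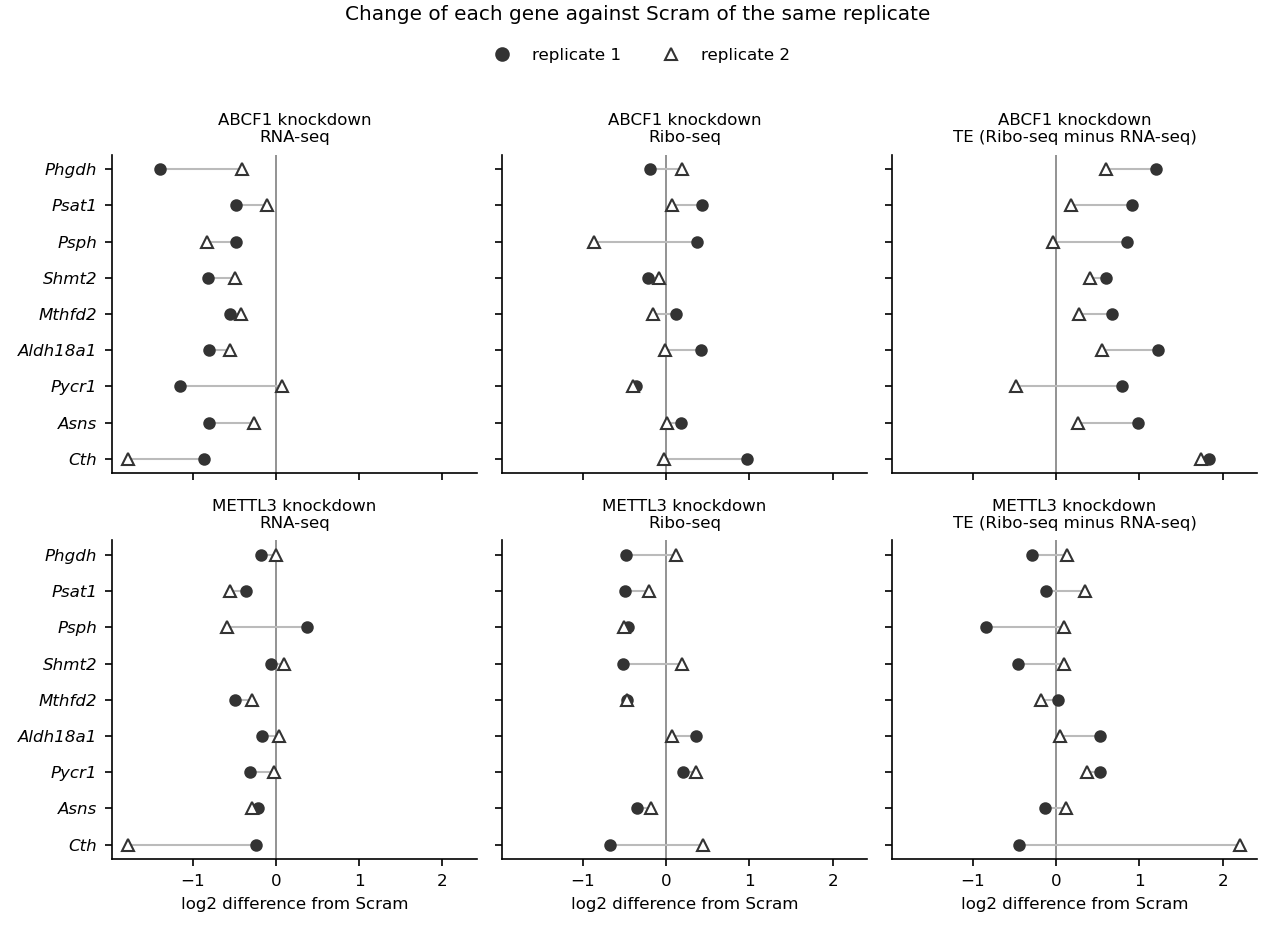
Log2(scaled RPKM + 1) difference of each knockdown library from Scram of the same replicate (x axis, log2 units) for 9 genes, with ABCF1 knockdown above and METTL3 knockdown below, and RNA-seq, Ribo-seq and TE from left to right. Filled circles are replicate 1, open triangles replicate 2, and a grey line joins them. In RNA-seq under ABCF1 knockdown every gene but Pycr1 lies left of 0 in both replicates, and under METTL3 knockdown 5 genes and Pycr1 do; for Cth, values of about -1.77 stand for a library in which it was not listed.

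Under shMETTL3 the RNA of Asns, Psat1, Phgdh and Mthfd2 was lower in both replicates, 4 of 7 without Cth against 26.1% of all genes, and none was higher in both (25.4%). With the absent value of Cth at 0 the count was 5 of 8. The median log2 difference was -0.11 over the 7 genes and -0.18 over the 8, beside -0.01 over all genes. Psat1 RNA had 153 and 104 in Scram and 119 and 70.5 under shMETTL3, or 77.5% and 67.6%. This was the largest difference among the 7 genes (-0.46, SE 0.36), and it was -0.18 without Scram replicate 1. Mthfd2 came next, with 67.2 and 40.6 in Scram and 47.5 and 33.1 under shMETTL3, or 70.7% and 81.6%, and its fitted difference was -0.03 without Scram replicate 1. Asns had 87.7 and 57.1 in Scram and 75.1 and 46.5 under shMETTL3, or 85.7% and 81.3%, with overlapping groups. Pycr1 was at 77.6% and 98.1%, and Cth had 9 reads in replicate 1 and was not listed in replicate 2. Phgdh was at 87.8% and 99.8%, Psph at 131.0% and 65.4%, and Shmt2 and Aldh18a1 lay between 88.7% and 107.4% of Scram. The direction turned without Scram replicate 1 for Asns (0.05), and without Scram replicate 2 (0.44) or shMETTL3 replicate 1 (0.39) for Phgdh. No gene passed (limma, adjusted p = 1.00 for each of the 8; 63 genes of 9021 at an unadjusted p under 0.05).

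Footprints under shMETTL3 were lower in both replicates for Asns, Psat1, Psph and Mthfd2 (4 of 8, against 25.2%), and higher in both for Aldh18a1 (1 of 8, against 27.8%). Mthfd2 had the same difference in each replicate, from 335 and 185 in Scram to 242 and 133 under shMETTL3, or 72.1% and 71.9%. The fitted log2 difference was -0.47 with an SE of 0.59, which carries the distance between the replicates, and an SE of 0.20 once the replicate was a term of the fit. Without Scram replicate 1 it was -0.04 and without shMETTL3 replicate 1 -0.91. Psph had 249 and 349 in Scram and 181 and 246 under shMETTL3, or 72.4% and 70.4%, and its groups did not overlap, but without Scram replicate 2 the fitted difference was -0.07. Psat1 had 617 and 610 in Scram and 440 and 527 under shMETTL3, or 71.2% and 86.4%, the second gene without overlap (2 of 8, against 10.3%), with -0.19 without Scram replicate 2. Aldh18a1 had 58.1 and 73.7 in Scram and 74.8 and 77.6 under shMETTL3, or 128.8% and 105.4%, the 1 gene higher without overlap (12.1% of all genes), with a fitted difference of 0.01 without shMETTL3 replicate 2.

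Shmt2 and Phgdh footprints went in different directions in the 2 replicates, at 69.6% and 114.6% of Scram for Shmt2 and 71.7% and 108.8% for Phgdh. Asns had 266 and 168 in Scram and 208 and 149 under shMETTL3, with overlapping groups, and its fitted difference turned to 0.06 without Scram replicate 1. Pycr1 had 27.7 and 24.1 in Scram and 32.1 and 31.2 under shMETTL3, or 115.8% and 129.2%. It had no overlap (12.1% of all genes were higher in this way) but few reads. The median over the 8 genes was -0.22, beside 0.02 over all genes. It was -0.47 in replicate 1 and -0.05 in replicate 2, and 0.0023 without Scram replicate 1. No gene passed in Ribo-seq (limma, 243 of 9534 at an unadjusted p under 0.05) or in TE (limma, 46 of 9428). With the replicate as a term of the fit 1 gene was called in Ribo-seq (0.0105% of genes), which was none of the 10. In TE 1 of 8 genes, Aldh18a1, was higher in both replicates (29.2% of all genes) and 0 were lower in both (23.7%), with a median difference of -0.05.

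The knockdowns share their Scram libraries, so they were also compared directly, a comparison added after the values had been seen. RNA of Phgdh, Psph, Shmt2, Mthfd2 and Aldh18a1 was lower under shABCF1 than under shMETTL3 in both replicates (5 of 8, against 31.8%), and that of Psph, Shmt2 and Aldh18a1 without overlap (3 of 8, against 15.1%). Shmt2 RNA stood at 37.3 and 48.2 under shABCF1 and 63.7 and 73.0 under shMETTL3, and Aldh18a1 RNA at 27.1 and 24.3 against 42.5 and 37.1. Footprints of Asns, Psat1, Phgdh and Mthfd2 were higher under shABCF1 in both replicates (4 of 8, against 27.4%). TE was higher under shABCF1 in both replicates for Asns, Phgdh, Shmt2, Mthfd2 and Aldh18a1 (5 of 8, against 26.7%), each without overlap (10.8% of all genes). No gene passed the test of this contrast (limma), with an unadjusted p under 0.05 for 254 genes by RNA, 201 by footprints and 46 by TE. With the replicate as a term of the fit 5 genes were called by footprints (0.0524%; lowest limma adjusted p 0.0252), none of them among the 10, and 0 by RNA or TE.

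With Torin1 the largest difference among these genes was that of Mthfd2. Its footprint level was 76.3 with Torin1 and 185 in Scram replicate 2, that is 41.3% (95% counting interval 34.9% to 48.6%, from 178 and 812 reads). Its RNA level was 43.7 and 40.6, or 107.4% (83.5% to 136.9%). The TE difference was therefore -1.37 on the log2 scale, lower than all but 2.3% of genes, and in Ribo-seq 2.1% of genes lay lower. Of the 8 tested genes 1 was at least 2-fold lower in footprints, against 3.94% of all genes, and 1 of 7 in TE, against 5.35%. In RNA-seq 0 of 7 were at least 2-fold lower (0.571% of all genes). None was at least 2-fold higher by RNA (1.03% of all genes), footprints (2.82%) or TE (2.66%). With 1 library per group this comparison has no replicate check.

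Mthfd2 footprints differed between the Scram replicates themselves, 335 and 185, but the Torin1 value lay below all 6 other Ribo-seq libraries, which ran from 133 to 364. Fitted against both Scram libraries the log2 difference was -1.69 (SE 0.72, limma adjusted p = 0.891), and with the replicate as a term of the fit it was -1.22 (SE 0.26, limma adjusted p = 0.109). Over all genes the first fit called 0 and the second 10 by RNA (0.111%), 126 by footprints (1.32%) and 50 by TE (0.53%), none of them among the 10. The fits assume that the lone Torin1 library varies like the other groups. Between scalings, pseudocounts and filters the value against Scram replicate 2 ran from -1.39 to -1.05.

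**Figure D4:**
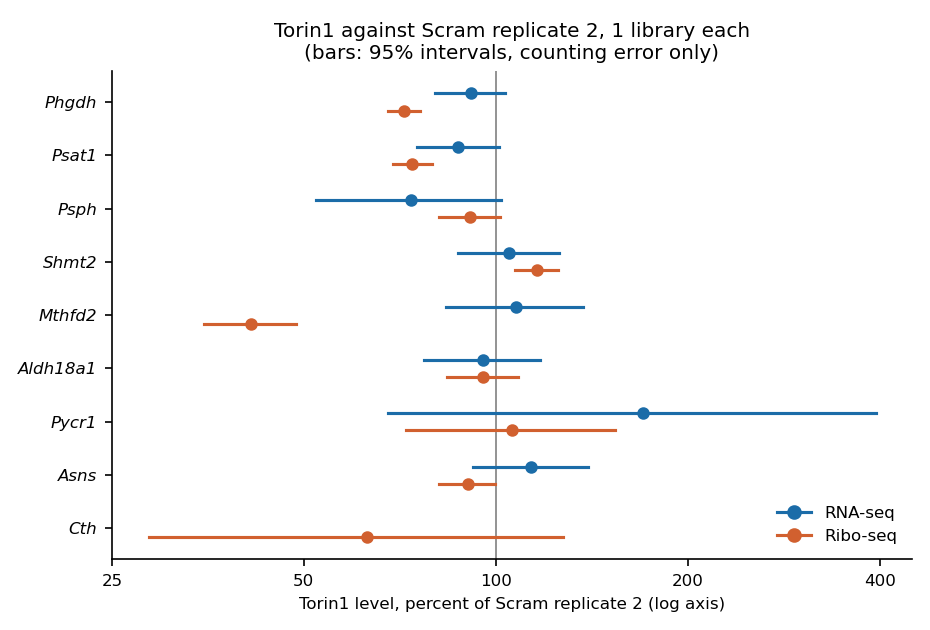
Level with Torin1 as percent of Scram replicate 2 (x axis, log axis) for 9 genes in RNA-seq (blue) and Ribo-seq (orange), 1 library each. Bars are 95% intervals for counting error only; the Ribo-seq value of Mthfd2, 41.3%, lies apart from the others, and Cth was not listed in RNA-seq with Torin1.

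The serine enzymes had smaller differences with Torin1. Psat1 footprints were at 452 against 610 in Scram replicate 2, or 74.0% (69.0% to 79.4%), and its RNA at 91.2 against 104. Phgdh footprints were at 443 against 617, or 71.8% (67.7% to 76.1%), and its RNA at 174 against 190. With quantile normalization these footprint differences came to 0.04 and -0.02 on the log2 scale, so both depended on the scaling. Psph footprints were at 318 against 349, and its RNA at 27.2 against 36.9. Shmt2 was higher in footprints, 314 against 271, or 115.9% (107.2% to 125.2%), and close in RNA, 71.3 against 68.0.

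Asns footprints stood at 152 against 168 and its RNA at 64.9 against 57.1, and Aldh18a1 at 70.3 against 73.7 and 34.7 against 36.3. Pycr1 footprints stood at 25.6 against 24.1, and its RNA at 3.55 against 2.09, or 170.0% (67.7% to 394.3%, from 9 and 19 reads). Cth footprints were at 4.15 against 6.61, or 62.8% (28.6% to 127.3%, from 11 and 33 reads). In all 7 of 8 genes were lower in footprints, against 49.4% of all genes. That count depends on the scaling, since without scaling Asns, Psph and Aldh18a1 lay above Scram replicate 2 (0.07, 0.08 and 0.15 on the log2 scale). In RNA-seq 4 of 7 were lower, against 48.5%, and 3 higher, against 51.5%. In TE 5 of 7 were lower, against 51.5%.

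Atf4, the transcription factor for many of these genes, had RNA levels of 158 and 163 in Scram, 133 and 140 under shMETTL3, 112 and 108 under shABCF1 and 103 with Torin1. The shABCF1 libraries lay at 71.0% and 66.0% of Scram, without overlap (log2 difference -0.54, SE 0.23, limma adjusted p = 1.00), against 11.6% of all genes. Both shMETTL3 libraries (9.7% of all genes) and the Torin1 library also lay below both Scram libraries. Atf4 footprints gave no common direction, at 232.4% and 66.2% of Scram under shABCF1 and 215.2% and 84.8% under shMETTL3. Scram itself differed between the replicates, with 93.8 and 253. Footprints over the coding part do not count ribosomes on the part of upstream reading frames, for which Atf4 is known, that lies before it. With Torin1 its footprints were at 215, or 84.8% of Scram replicate 2, and its RNA at 62.8% (53.0% to 74.1%).

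Other genes of the same metabolism, in lists written with earlier results of these data known, gave no calls in any knockdown comparison (limma). In RNA-seq under shABCF1, where 29.0% of all genes were lower in both replicates and 21.8% higher, 8 of 11 tested genes of one-carbon and serine metabolism were lower and 0 higher, with a median of -0.28. Aldh1l2, the mitochondrial formyltetrahydrofolate dehydrogenase, had differences of -0.98 and -0.78. Of 13 tested genes around proline, glutamate and aspartate 8 were lower and 2 higher, with a median of -0.21. Glul, glutamine synthetase, was among the higher ones with 1.61 and 0.86. Of 11 tested genes of methionine, cysteine and glutathione metabolism 4 were lower and 0 higher, with a median of -0.24. Of 15 ATF4 and stress response genes 5 were lower and 4 higher, near the shares of all genes, with a median of -0.34. The median over all genes was -0.05. By footprints the same lists had 3 of 11, 1 of 14, 5 of 11 and 0 of 16 genes lower in both replicates, and 2, 3, 3 and 0 higher, where all genes had 23.0% lower and 25.3% higher.

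Under shMETTL3 these lists were mixed. In RNA-seq, where 26.1% of all genes were lower in both replicates and 25.4% higher, 2 of 11 one-carbon genes were lower in both replicates and 4 higher, 5 of 13 proline, glutamate and aspartate genes lower and 1 higher, and 6 of 15 stress response genes lower and 1 higher. In the methionine, cysteine and glutathione list 0 of 11 were lower and 5 higher, with a median of 0.29. Ethe1 and Mpst, both of mitochondrial sulfur metabolism, had 0.13 and 1.27, and 0.04 and 1.04. The TE values named for the lowest p of their lists were those of Asrgl1, an asparaginase, at 1.12 and 1.11, and Shmt1, the cytosolic counterpart of Shmt2, at -1.41 and -0.01. Nupr1, a stress-induced transcriptional regulator, had RNA differences of -0.21 and -3.07. No value of these single genes passed the test. With Torin1 footprints were at least 2-fold below Scram replicate 2 for 1 of 10 one-carbon genes, 0 of 12 proline, glutamate and aspartate genes, 0 of 9 of the sulfur list and 2 of 13 stress response genes, and 0 in each list were at least 2-fold above it. Of all genes 3.94% lay as far below and 2.82% as far above.

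The 7 genes with at least 20 reads in each library were also compared by their profile over the 14 libraries, each centred within its assay and replicate set. Among them Psph had as few as 35 RNA reads. Asns followed the mean of the other 6 most closely (Pearson r 0.90), then Phgdh (0.79), Shmt2 (0.67), Aldh18a1 (0.64), Psat1 (0.58), Mthfd2 (0.57) and Psph (0.53). Among 3970 other genes with at least 20 reads in each library, those most like the mean profile were Gars, a glycyl-tRNA synthetase (0.97), Hspa9, a mitochondrial chaperone (0.90), Surf6, a nucleolar protein (0.88), Vdac2, a channel of the outer mitochondrial membrane (0.85), and Slc7a5, a subunit of a large neutral amino acid transporter (0.85). An r over 0.5 was reached by 8.56% of the candidates. These correlations describe 14 libraries that share scaling and controls. Gars RNA differed from Scram by -1.03 and -0.52 under shABCF1 and its TE by 1.31 and 0.49, and Slc7a5 RNA by -1.08 and -0.68 and its TE by 1.70 and 0.64.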

How the data were processed

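The authors deposited RPKM values, 1 per Ensembl transcript and library, made with cutadapt and Bowtie on GRCm38, as listed per the submitters' processing notes. Versions, annotation release and the rule for counting reads were not given in the sources used here. Of 22453 transcripts 22356 matched GENCODE M21, and for each gene the one with the highest mean RPKM was kept. Multiplied by length, 98.7% to 98.8% of footprint values (coding length) and 80.5% to 85.4% of RNA values (transcript length) were whole reads with a tolerance of 0.02, which gave depth and reads. Reads were used for counting intervals (exact Clopper-Pearson, 95%), not for the test. The deposited RPKM were scaled to a common median per assay and taken as log2(RPKM + 1), so folds of low genes are understated. Absent values counted as 0. Genes listed in at least 0.5 of the libraries with a mean RPKM of at least 1 were fitted with limma 3.58.1 (lmFit, eBayes with trend; R 4.3.3), without a replicate block, Benjamini-Hochberg over all genes, threshold 0.05; TE was the interaction of both assays. The fits were also run on simulated data, with an outcome not reported here, so that run gives no measure of how many true changes they call.

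The members, the other lists, both targets, Atf4 and the cell type markers were chosen with earlier results of these data known. Of the other lists the 2 genes of lowest p were named, and the 5 genes of most similar profile. Same-numbered libraries deviated together from their group means (r 0.82 to 0.88 in RNA-seq, 0.91 to 0.94 in Ribo-seq), with Torin placed with replicate 2 in the blocked fit. Alternatives were the replicate block, other pseudocounts, scalings and filters, summed transcripts, a Torin fit on both Scram libraries, leaving out Cth and leaving out each library.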

Additional observations from a re-analysis of the deposited data

How the results depend on the processing

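With the filter on low values and without the replicate block no gene was called in any comparison under the pseudocounts and scalings tried, nor when each library was left out in turn. With the replicate block 1 gene was called for shMETTL3 in Ribo-seq, 10 for Torin by RNA, 126 by footprints and 50 by TE, 5 between the knockdowns in Ribo-seq, and 0 elsewhere; none of these was one of the 10 genes. The blocked fit left the size of the knockdown differences as it was. Without the filter on low values 15 genes were called for Torin in Ribo-seq and 55 in TE, where a gene absent from 1 set of files counts as 0. The medians over the 8 genes kept within 1 SD under every pseudocount, scaling and filter tried. This SD is that between the medians of replicate 1 and replicate 2. It ran from 0.06 (RNA-seq under shMETTL3) to 0.43 (TE under shABCF1). It is wide where the replicates disagree, so keeping within it is a weak check. Leaving out Cth, an alternative added after the data were seen, moved the RNA-seq median under shMETTL3 to -0.11 and left the other medians within 1 SD. The 29 fitted differences of single genes whose replicates had 1 direction kept it under all 7 alternatives other than leaving out a library. For some of these alternatives the outcome was fixed in advance. The replicate block leaves a difference as it is, and another pseudocount cannot turn it in RNA-seq or Ribo-seq. Fits without 1 library had no replicate term and also carry the distance between replicates. They turned 7 of the 29. The ranges were -0.60 to 0.053 for Asns and -0.71 to 0.44 for Phgdh in RNA-seq under shMETTL3, -0.51 to 0.064 for Asns in Ribo-seq under shMETTL3, -0.33 to 0.42 for Asns and -0.35 to 0.10 for Shmt2 in Ribo-seq under shABCF1, and -0.21 to 1.92 for Phgdh and -0.10 to 0.89 for Mthfd2 in TE under shABCF1. The member median ranged from -0.44 to -0.11 in RNA-seq and -0.12 to 0.25 in TE under shMETTL3, and from -0.34 to 0.26 in Ribo-seq under shABCF1, the lower end without shABCF1 replicate 1. In Ribo-seq under shMETTL3 it ran from -0.24 to 0.0023, and in TE under shABCF1 from 0.33 to 0.78. How much of these ranges the distance between replicates makes up was not tested. In RNA-seq under shABCF1 it stayed between -0.73 and -0.54. Without scaling the median of all genes moved to -0.17 in RNA-seq and 0.21 in TE under shABCF1, and for Torin to -0.49 by RNA, 0.27 by footprints and 0.78 by TE. Of the Torin values of these genes under the alternatives, 26 lay outside the counting interval of the value reported and 94 within it. Depth limits Cth, Pycr1 and Psph, which had few RNA reads.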
